A study of Mus musculus with 192 samples.

Results

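A group of genes best known from pluripotent stem cells, cell growth and the telomere are described here in single cells that reached a skin wound from the circulation: the transcription factors Sox2, Nanog, Klf4, Myc and Pou5f1, and the telomerase reverse transcriptase Tert. They were chosen by name and are 6 of the 95 genes that 96 TaqMan assays read. In the study, recipient mice shared a circulation through parabiosis, in which a pair of mice is surgically joined, with donors whose cells carry green fluorescent protein (GFP), and dorsal skin wounds were made in the recipients. Cells that were lineage-negative and GFP-positive were sorted from the wounds, and each was read by quantitative PCR. The recipients lacked the chemokine Cxcl12 in the endothelium (EKO) or were wild type (WT). The sorted cells all bear the donor's label, so the genotype is that of the host around them. The sources used here do not give the Cre line behind the deletion, the antigens of the lineage gate, the age of the mice or the day after wounding.

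Each genotype gave 96 cells, 48 in each of 2 sets named A and B. Animals are not named, so a genotype was taken as 1 sample, cells were not treated as replicates, and no difference was tested. EKO cells are numbered 49 to 96 and WT cells 1 to 48 in both sets, so genotype and position in a set cannot be told apart. The value is the cycle threshold (Ct), the PCR cycle at which a reaction crosses a set fluorescence. An earlier Ct means a higher level, with about a doubling per cycle. A Ct of 40 was read as not detected. Shares of cells carry exact (Clopper-Pearson) 95% intervals, which cover counting error only.

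Oct4 (the product of Pou5f1), Sox2 and Nanog bind together at the regulatory DNA of embryonic stem cells and hold them in the undifferentiated state. Oct4, Sox2, Klf4 and Myc are the classic set of factors that return fibroblasts to that state. Klf4 and Myc are also widely used outside pluripotency, in skin, blood cells and proliferating fibroblasts. Telomerase lengthens chromosome ends, and in adult tissue its catalytic subunit is restricted mostly to stem and dividing cells.

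Sox2 and Nanog were detected in most cells, Klf4 and Myc in a minority, Tert in a few and Pou5f1 in none. Sox2, read by assay Mm00488369_s1, was detected in 157 of 192 cells (81.8%, interval 75.6 to 86.96%). Its Ct was 16.4 at the lowest, 18.73 at the median and 28.98 at the highest. Nanog, read by Mm02019550_s1, was detected in 159 cells (82.8%, 76.7 to 87.9%) at a Ct of 13.9 at the lowest, 23.27 at the median and 37.9 at the highest. The shares of Sox2 and Nanog were thus alike, while the SD of the Ct over detecting cells was 1.80 cycles for Sox2 and 4.62 for Nanog. Klf4 (Mm00516104_m1) was detected in 75 cells (39.1%, 32.1 to 46.4%), with a lowest, median and highest Ct of 11.6, 17.37 and 26.96. Myc (Mm00487803_m1) was detected in 72 cells (37.5%, 30.6 to 44.8%), with 12.6, 16.3 and 22.3. Their intervals overlapped each other and lay far below those of Sox2 and Nanog.

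Tert (Mm00436931_m1) was detected in 11 cells (5.73%, 2.89 to 10.02%), in all of them at a Ct between 18.27 and 20.69. Pou5f1 (Mm00658129_gH) was at 40 in all 192 cells, a count of 0 with an exact interval of 0 to 1.90%, where 3 counts would be 1.56%. No cell therefore showed the core trio of pluripotency factors together, and the genes are described below one by one, with no pluripotent state named. Lin28a, Zfp42 and Dppa3, other genes of pluripotent cells, were not analysed here. Ct values of different assays were not set against each other as levels, since assays differ in efficiency.

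The identifiers differ in a way that bears on what each assay can read. In the maker's naming a suffix of m marks primers and probe that span an exon junction, s a set within 1 exon, and g a set that may also read genomic DNA. Klf4, Myc and Tert belong to the 83 assays of the first kind. Sox2 and Nanog belong to the 6 of the single-exon kind, with Actb, Ang, Ly6a and Nog, and the Pou5f1 assay carries a g suffix. An assay within 1 exon cannot tell a transcript from genomic DNA or a processed pseudogene, and Nanog is known to have processed pseudogenes in the mouse. The part of such templates in the Sox2 and Nanog signals was not tested.

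Cells differed widely in how much of the panel they detected, and the members behaved differently along that range. Cells were placed by the number of the 90 assays outside the 6 genes that they detected: 32 cells detected 0 to 9, 67 detected 10 to 23, 61 detected 24 to 47 and 32 detected 48 or more. Sox2 was detected in 28 (87.5%), 57 (85.1%), 48 (78.7%) and 24 (75%) of the cells in these bins, from the fewest assays to the most. Its median Ct was 18.52, 18.37, 18.92 and 18.94. In unnormalized Ct over both sets, Sox2 was thus found at nearly the same level in cells that gave almost nothing else and in the richest cells. In cells with 24 or more other assays it was read 0.48 cycles later than in those with fewer (set A 1.23, set B 0.21). That difference was 2.43 cycles counted against each cell's own median Ct, and 6.87 against the mean of Actb and B2m.

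**Figure D1:**
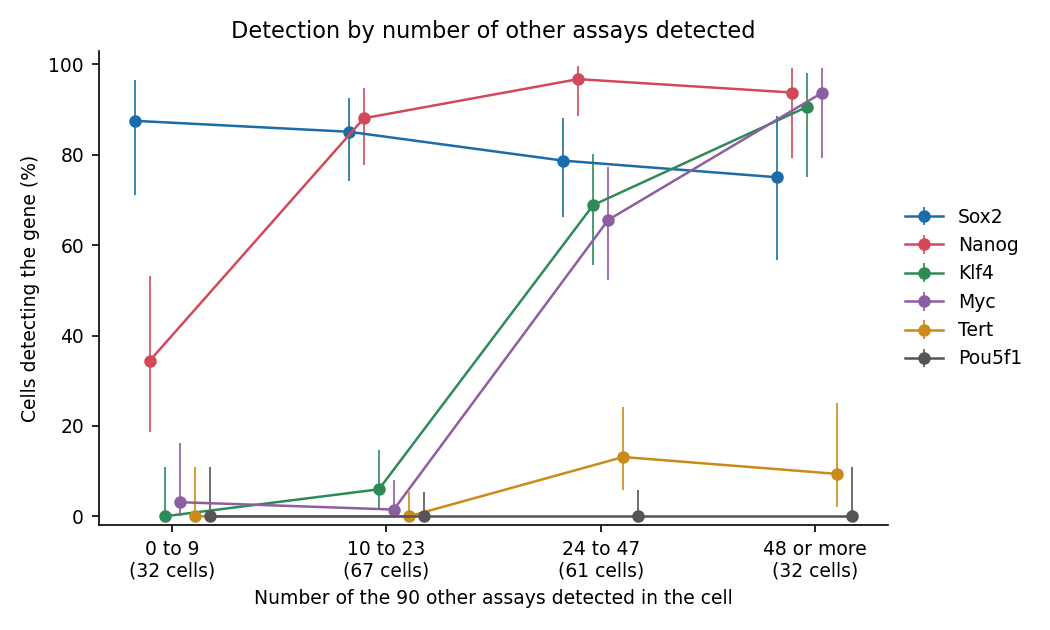
Share of cells (vertical axis, percent) that detected each of the 6 genes, by the number of the 90 other assays the cell detected (horizontal axis, from fewest to most). Points are shares over all 192 cells, bars are exact 95% intervals for counting error, and lines join the bins. Klf4 and Myc lie near 0 in the 2 lower bins and above 90% in the highest, while Sox2 goes from 87.5% in the lowest bin to 75% in the highest.

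Nanog was detected in 11 of 32 (34.4%), 59 of 67 (88.1%), 59 of 61 (96.7%) and 30 of 32 (93.75%) cells of the same bins. Klf4 was detected in 0 of 32 cells, 4 of 67 (5.97%), 42 of 61 (68.9%) and 29 of 32 (90.6%), and its median Ct over the last 3 bins was 20.42, 17.71 and 16.15. Myc was detected in 1 of 32 cells (3.13%), 1 of 67 (1.49%), 40 of 61 (65.6%) and 30 of 32 (93.75%). Its median Ct in the 2 upper bins was 17.04 and 15.37. Apart from 4 cells with Klf4 and 2 with Myc, both genes were detected in cells with at least 24 other assays, where they were also read earlier the more the cell detected. Of the 11 cells with Tert, 8 lay in the third bin and 3 in the highest.

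The split at 24 other assays leaves 93 cells on the upper side and 99 on the lower. A difference in share was called when it reached 10 percentage points and had 1 sign in sets A and B. Of all 96 assays, 76% were called higher in cells with 24 or more other assays and 0% lower, with a median of 27.97 points. Of the 6 genes, Klf4 (72.3 points, interval 60.7 to 81.01), Myc (73.2, 62 to 81.8), Nanog (24.99, 14.2 to 35.5) and Tert (11.8) met that rule. Sox2 did not: it was detected in 72 of 93 cells (77.4%) with 24 or more other assays and in 85 of 99 (85.9%) with fewer, a difference of -8.44 points (-20.1 to 3.21).

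In levels Nanog went against the panel. Among cells that detected it, the median Ct was 24.07 ± 4.85 (SD, 89 cells) with 24 or more other assays and 21.62 ± 3.95 (70 cells) with fewer. Nanog was thus read 2.45 cycles later in the cells that detected more of the panel. A level difference was called at 1 cycle with 1 sign in sets A and B and 5 or more detecting cells on each side of each. Of the 28 assays with enough cells, 78.6% were called earlier in the richer cells and 3.57%, which is Nanog alone, later. Over the 41 assays with at least 5 detecting cells on each side, the median shift was -1.86 cycles. The 6 single-exon assays did not move alike: Nanog stood at 2.45 cycles, Sox2 at 0.48 and Nog at 0.40, while the median of the 6 was -0.67 and that of 32 exon-spanning assays -1.91.

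**Figure D2:**
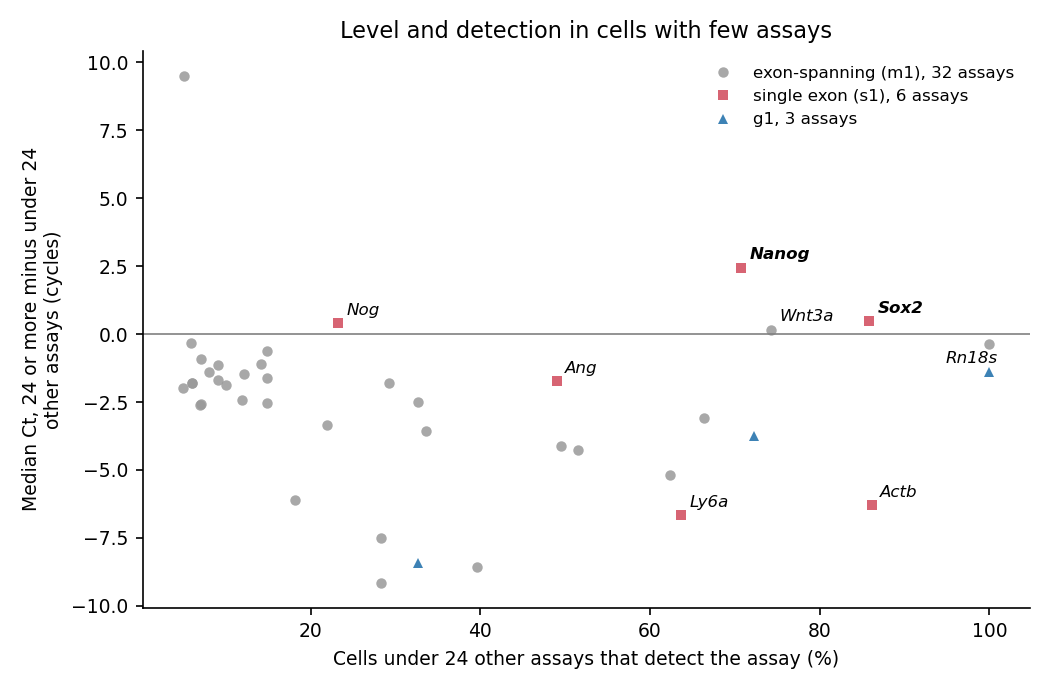
For each of 41 assays, the share of cells under 24 other assays that detected it (horizontal axis, percent) against its median Ct in cells with 24 or more minus under 24 other assays (vertical axis, cycles; above 0 is a later Ct in the richer cells). Squares are single-exon, circles exon-spanning and triangles g-suffix assays, and the members are in bold. Nanog lies at 2.45 cycles and Sox2 at 0.48, above most assays. The circle at the top left was detected in few cells under 24 assays.

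Across all detecting cells the Ct of Klf4 and Myc fell as the number of other assays grew, while those of Sox2 and Nanog hardly followed it. Pearson's r and Spearman's rho between Ct and the number of other assays were -0.51 and -0.50 for Klf4 (75 cells) and -0.59 and -0.58 for Myc (72 cells). They were 0.10 and 0.17 for Sox2 (157 cells) and 0.16 and 0.21 for Nanog (159 cells). These describe cells of the same 2 sets, which share preparation and yield, and carry no test.

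**Figure D3:**
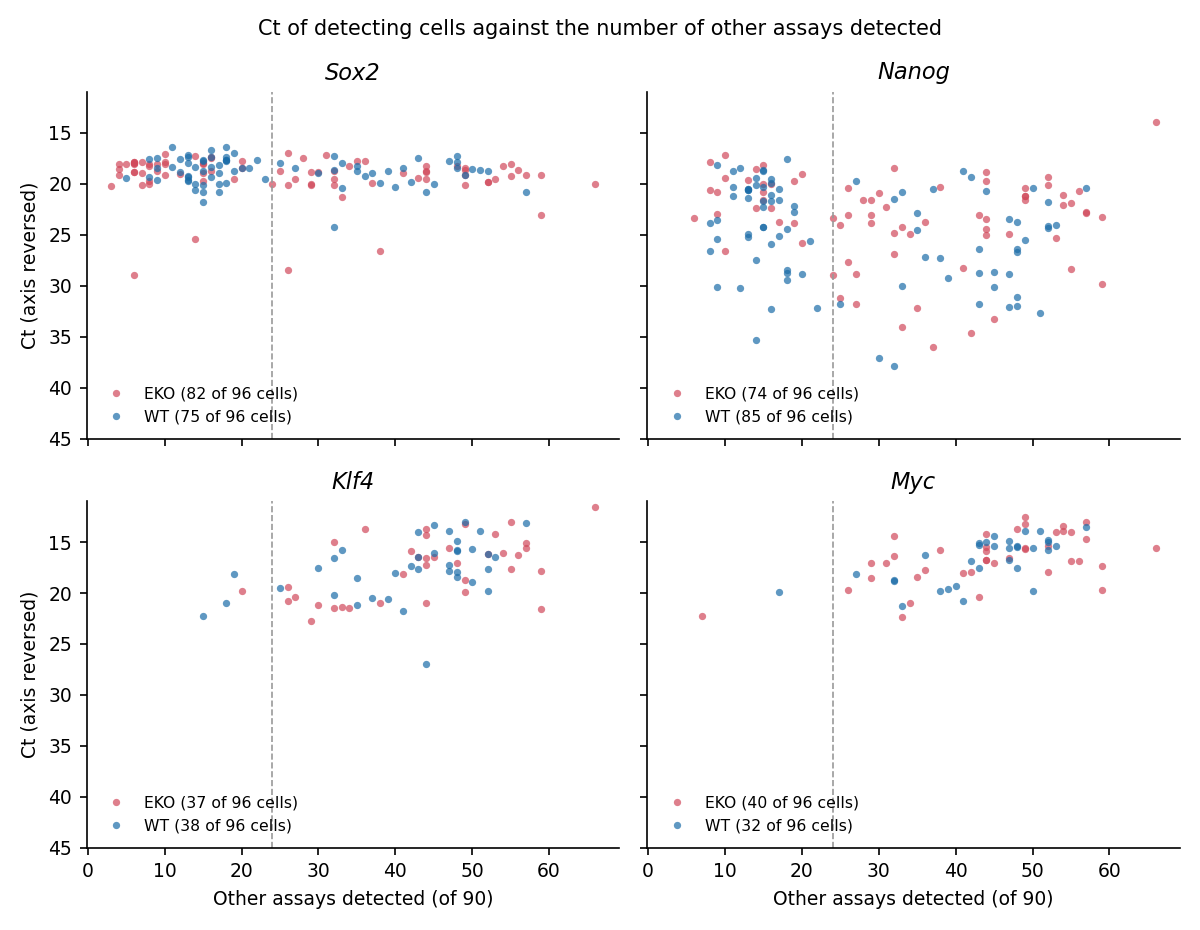
Ct of each detecting cell (vertical axis, reversed so that higher levels are at the top) against the number of the 90 other assays it detected (horizontal axis), for Sox2, Nanog, Klf4 and Myc. Each point is a cell, red from EKO and blue from WT recipients, cells at a Ct of 40 are not drawn, and the dashed line marks 24 other assays. Sox2 forms a flat band near its median of 18.73, Nanog spreads from 13.9 to 37.9, and Klf4 and Myc lie almost wholly to the right of the line.

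Nanog also held many of the latest reactions of the whole panel. Of 184 detected reactions with a Ct above 26, Nanog held 45 (24.5%), and of 55 above 30 it held 22 (40%). Ang, the angiogenin gene, came next with 24 and 13. Sox2 held 3 and 0, Klf4 held 1 and 0, and Myc held none. The share of kept cells with Nanog therefore depended on the Ct limit: it was 92.9% below 40, 90.6% below 35, 80% below 30 and 72.4% below 28, where kept cells are the 170 with at least 10 of the 96 assays. Between these limits Sox2 moved by less than a point, and Klf4, Myc and Tert did not move.

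Cells of the wound differ in type, and Klf4 and Myc were detected most often in cells with high collagen, which also detected more of the panel. A kept cell was called collagen-high where Col1a1 and Col3a1, the major fibrillar collagens of fibroblasts, were both below a Ct of 16 (46 cells: 21 EKO and 25 WT). It was called Ptprc-detecting where Ptprc, the CD45 antigen of leukocytes, was detected and the collagen rule was not met (71 cells: 36 EKO and 35 WT). The other 53 kept cells (20 EKO and 33 WT) met neither. The lowest Col3a1 value above the limit was 16.37 and the highest below it 15.98. The classes are ranges and not pure types: 31 of the 46 collagen-high cells also detected Ptprc. Collagen-high cells detected a median of 6 of 7 mesenchymal, 2 of 5 leukocyte, 3 of 5 haematopoietic progenitor and 1 of 6 endothelial markers, and Adgre1 and Tie1 in no cell. Ptprc-detecting cells detected 2, 2, 1 and 0. The mesenchymal list holds Col1a1 and Col3a1 and the leukocyte list holds Ptprc, so part of these counts was set by the class definitions. The count of progenitor markers was higher in the collagen-high class, which also detected more of the panel. The genes of that list did not move together. In share, collagen-high minus Ptprc-detecting, Kit differed by -20.9 points, Gata2 by 1.53, Runx1 by 51.3 and Cd34 by 76.5.

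Klf4 was detected in 44 of 46 collagen-high cells (95.65%, 85.2 to 99.5%), in 24 of 71 Ptprc-detecting cells (33.8%, 23 to 46.01%) and in 7 of 53 of the others. Among detecting cells its Ct in the collagen-high class was 13.003 at the lowest, 16.20 at the median and 26.96 at the highest, and in the Ptprc-detecting class 11.6, 20.33 and 22.7. The ranges overlapped, since the earliest Klf4 reaction of all came from a Ptprc-detecting cell. That cell, from set A of the EKO recipients and singled out after its values were seen, detected 66 other assays, the most of any cell, and also gave the earliest Nanog reaction. The medians, collagen-high minus Ptprc-detecting, differed by -4.13 cycles (set A -4.05, set B -3.94). Counted against each cell's own median Ct the difference was -2.75 cycles.

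Myc was detected in 43 of 46 collagen-high cells (93.5%, 82.1 to 98.6%), in 21 of 71 Ptprc-detecting cells (29.6%, 19.3 to 41.6%) and in 7 of 53 of the others. Its lowest, median and highest Ct were 12.6, 15.38 and 19.8 in collagen-high cells, against 14.4, 18.68 and 22.3 in Ptprc-detecting cells. The median Ct differed by -3.30 cycles, -2.35 counted against each cell's own median, and set A alone gave -3.99 and set B -3.45. Both genes thus were more often detected and read earlier in collagen-high cells in each set.

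Sox2 ran the other way. It was detected in 30 of 46 collagen-high cells (65.2%, 49.8 to 78.6%) and in 63 of 71 Ptprc-detecting cells (88.7%, 79 to 95.01%), a difference of -23.5 points (interval -40.2 to -6.93; set A -18.5, set B -28.8). With all 96 assays ordered by this difference from the highest, Sox2 ranked 95. The difference was -38.3 points among WT cells and -7.14 among EKO cells, and the difference between these was not tested. Its median Ct was 18.82 in collagen-high and 18.77 in Ptprc-detecting cells. Counted against each cell's own median it was 1.83 cycles later in collagen-high cells, and 1.65 later against Actb and B2m. Among cells with 24 or more other assays these values were 0.90 and -0.59, and the unnormalized difference was -0.38 cycles.

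Nanog was detected in 43 of 46 collagen-high and 65 of 71 Ptprc-detecting cells, a difference of 1.93 points (-10.6 to 12.3), and its median Ct was 23.73 and 23.86. In the 53 other cells it was detected in 50, at a median Ct of 21.33. Tert was detected in 8 of 46 collagen-high cells (17.4%, 7.82 to 31.4%), in 2 of 71 Ptprc-detecting cells (2.82%, 0.34 to 9.81%) and in 1 of the others.

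By the size rule 54.8% of the 93 assays outside the class definition were called higher in collagen-high cells and 7.53% lower. Of the 6 genes, Klf4, Myc and Tert were called higher and Sox2 lower, with a median of 8.25 points over the 6 and of 14.6 over the 93. By Ct 47.6% of 42 assays were called earlier and 4.76% later, Klf4 and Myc among the earlier. The classes also differed in yield: the median number of other assays was 48 (32 to 57) in collagen-high, 25 (9 to 66) in Ptprc-detecting and 14 (8 to 52) in the other cells. Among cells with 24 or more other assays the differences were 43.2 points for Klf4, 40.98 for Myc and -24.8 for Sox2. Of the 7 cells of neither class at that yield, 6 detected Klf4 and 6 Myc, so frequent detection was not particular to high collagen. With 40 or more, only 7 Ptprc-detecting cells remained, of which 6 detected Klf4 and 7 Myc, beside 41 of 43 collagen-high cells for each gene. With so few Ptprc-detecting cells (Klf4 interval 42.1 to 99.6%), a difference in share could be neither shown nor excluded for these genes at that yield. Sox2 was detected there in 27 of 43 collagen-high and 7 of 7 Ptprc-detecting cells, a difference of -37.2 points. It rests on the same 7 cells (Sox2 interval 59.04 to 100%). The level differences there were -1.83 cycles for Klf4 and -2.69 for Myc, against -4.13 and -3.30 over all kept cells. They rest on 6 Ptprc-detecting cells with Klf4 and 7 with Myc.

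**Figure D4:**
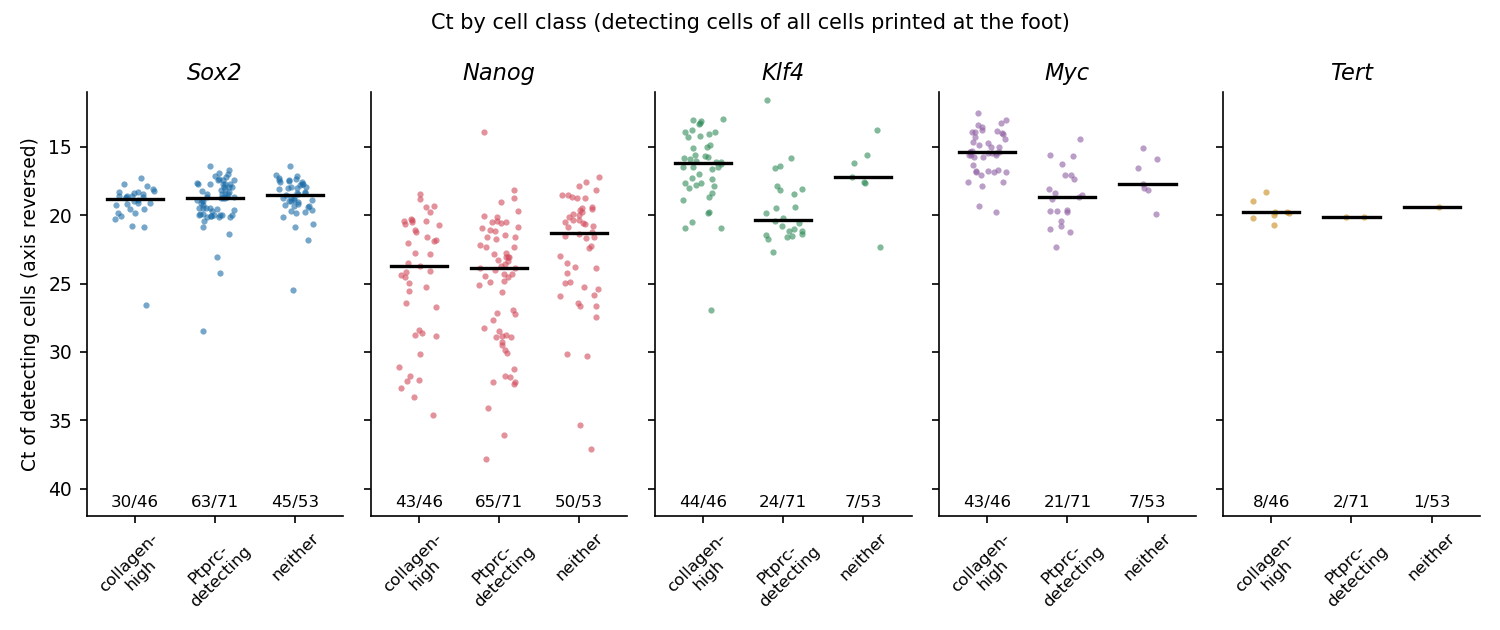
Ct of each detecting kept cell (vertical axis, reversed so that higher levels are at the top) for 5 genes in collagen-high, Ptprc-detecting and other cells. Each point is a cell, the black line is the median, and the figures at the foot give detecting cells over all cells of the class. The medians of Klf4 lie at 16.20, 20.33 and 17.23 and those of Myc at 15.38, 18.68 and 17.75, while those of Sox2 lie between 18.50 and 18.82.

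Klf4 and Myc were often found in the same cells. Of 170 kept cells 60 detected both, 15 Klf4 alone, 11 Myc alone and 84 neither. The product of their shares would put both in 31.3 cells, and in 54.8 when taken within the bins of other assays, which is nearer to the 60 observed. Over the 60 cells the Ct values correlated at r = 0.35 and rho = 0.42, and at r = 0.18 within the 41 collagen-high cells with both. Sox2 and Nanog were found together in 126 kept cells, against 128.3 from the product of shares. Of the 160 cells with at least 10 assays outside the 6 genes, 0 lacked both Sox2 and Nanog, and of the 32 with fewer, 3 did.

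All 11 cells with Tert detected Myc, 9 detected Klf4, 10 Nanog and 8 Sox2. They detected between 27 and 54 other assays, with a median of 45, and 8 of them were collagen-high. In EKO recipients 4 cells with Tert had Ct values of 18.96, 19.81, 20.14 and 20.18. The 7 in WT recipients ran from 18.27 to 20.69, so the ranges overlapped. The 170 kept cells held between 1 and 5 of the 6 genes: 22 held 1, 65 held 2, 36 held 3, 42 held 4 and 5 held 5. In the collagen-high class 25 of 46 cells held 4, against 12 of 71 in the Ptprc-detecting class.

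By the phi coefficient of detection over the 170 kept cells, the assays most like Klf4 were Myc (0.69), Ackr3 (0.68) and Runx1 (0.67). Those most like Myc were Ctnnb1 (0.72), Timp1 (0.71) and Itga5 (0.71). In cells with at least 24 of the 96 assays these values were 0.42, 0.52 and 0.28 for Klf4 and 0.43, 0.50 and 0.50 for Myc. Tert was most like Myc (0.31), Fgf2 (0.30) and Thy1 (0.25). With Sox2 the highest of 63 assays compared were Nog (0.10), Mki67 (0.09) and Ly6a (0.07), and the lowest was Ccn2 (-0.23). With Nanog the highest of 64 were Notch2 (0.18), Ang (0.17) and Itgb3 (0.17), and the lowest was Sox2 (-0.13).

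Between recipients, Myc was the one of the 6 genes called in share. The rule was applied to the 77 EKO and 93 WT kept cells, in which 20.8% of the 96 assays were called higher in EKO and 0% lower, with a median of 5.70 points. Myc was detected in 39 of 77 EKO cells (50.6%, interval 39.005 to 62.2%), against 32 of 93 WT cells (34.4%, interval 24.9 to 44.98%), a difference of 16.2 points (0.51 to 31.3). In set A it was 18 of 39 EKO and 17 of 48 WT cells, and in set B 21 of 38 and 15 of 45. A single call among 6 is near the share of the panel, and 11 assays stood above Myc.

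The Myc difference did not hold among all cells of higher yield. With 24 or more other assays Myc was detected in 39 of 53 EKO cells (73.6%) and 31 of 40 WT cells (77.5%), a difference of -3.92 points (-22.1 to 15.6). These cells differed in class: 21 EKO cells were collagen-high and 28 Ptprc-detecting, against 25 and 12 WT cells. Within the classes over all kept cells, Myc was found in 21 of 21 EKO and 22 of 25 WT collagen-high cells, and in 14 of 36 EKO and 7 of 35 WT Ptprc-detecting cells. These differences of 12 and 18.9 points met the rule. All 21 Ptprc-detecting cells with Myc had 24 or more other assays. At that yield Myc was thus found in 14 of 28 EKO and 7 of 12 WT Ptprc-detecting cells, a lower share in EKO. Of 93 assays, 12.9% were called higher in EKO and 8.6% lower in collagen-high cells, and 35.5% higher and 2.15% lower in Ptprc-detecting cells. Of the 6 genes, Myc and Sox2 were called higher in collagen-high cells, and in Ptprc-detecting cells Myc, Klf4 (10.3 points) and Nanog (11.5 points) were called higher and Sox2 lower. Ptprc-detecting EKO cells also detected a median of 28.5 other assays, and WT cells 19. When cells were weighted so that EKO and WT cells fell equally into 3 bins of yield, the Myc difference over kept cells was 4.78 points, and with no filter on cells it was 8.33. Both lie under the 10 points of the rule.

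Klf4 was not called over the kept cells. It was found in 37 of 77 EKO cells (48.1%, interval 36.5 to 59.7%), against 38 of 93 WT cells (40.9%, interval 30.8 to 51.5%), a difference of 7.19 points (set A -0.16, set B 14.9), and -4.03 with the same weights. With 24 or more other assays it was detected in 36 of 53 EKO cells (67.9%) and 35 of 40 WT cells (87.5%), a difference of -19.6 points (interval -36.1 to -0.80; set A -27.5, set B -9.92). There 3.12% of the 96 assays were called higher in EKO and 14.6% lower, Klf4 among the lower. In collagen-high cells Klf4 was found in 19 of 21 from EKO and 25 of 25 from WT recipients, and in Ptprc-detecting cells in 14 of 36 EKO and 10 of 35 WT cells. The Ptprc-detecting counts are over all kept cells, of which 28 of 36 EKO and 12 of 35 WT cells had 24 or more other assays. At that yield Klf4 was less often detected in EKO cells in both classes, and more often in the few cells of neither class. What the lower share in the richer EKO cells reflects was not tested.

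Sox2 was detected in 64 of 77 EKO cells (83.1%) and 74 of 93 WT cells (79.6%), 3.55 points (interval -9.25 to 15.8; set A 14.3, set B -7.72). In collagen-high cells it was found in 16 of 21 from EKO and 14 of 25 from WT recipients, and in Ptprc-detecting cells in 30 of 36 EKO and 33 of 35 WT cells. The differences of 20.2 and -10.95 points have opposite signs, and their intervals of -10.3 to 46.4 and -27.9 to 5.98 overlap. Nanog was detected in 73 of 77 EKO cells (94.8%) and 85 of 93 WT cells (91.4%). Over all cells with no filter it was found in 74 of 96 EKO cells (77.1%) and 85 of 96 WT cells (88.5%), and 1 of the 22 cells left out, 19 of them EKO, detected it. Tert was detected in 4 of 77 EKO cells (5.19%) and 7 of 93 WT cells (7.53%).

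**Figure D5:**
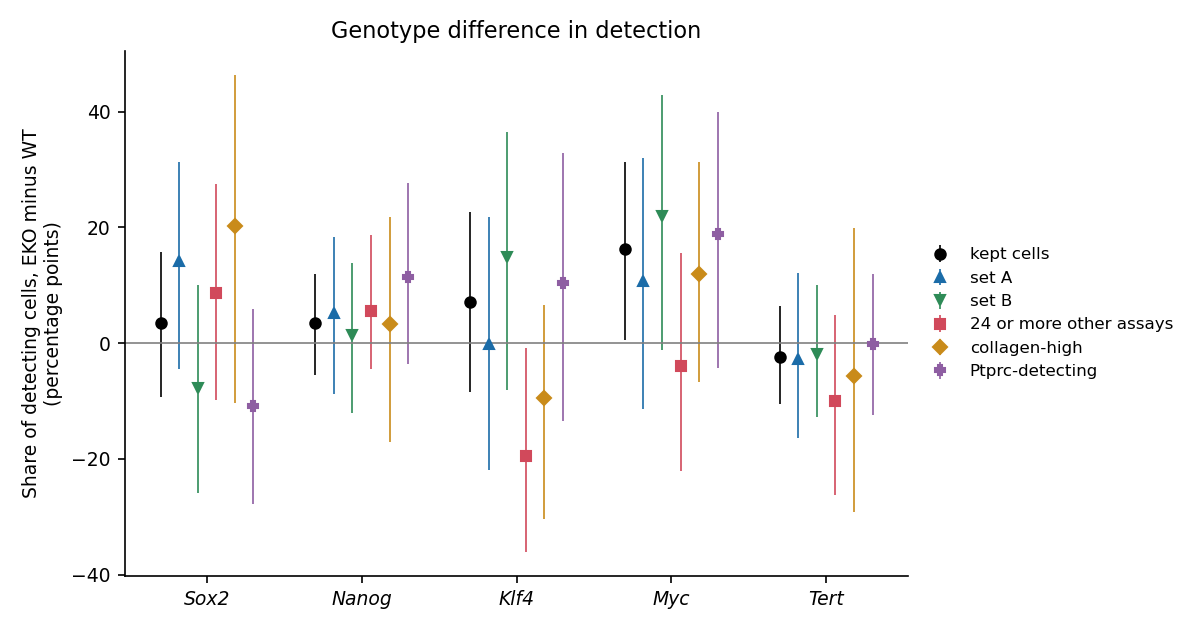
Share of cells that detected each gene, EKO minus WT (vertical axis, percentage points), for 5 genes. Markers from left to right are all kept cells, set A, set B, cells with 24 or more other assays, collagen-high cells and Ptprc-detecting cells, and bars are 95% intervals joined from the exact intervals of the 2 shares. Myc lies at 16.2 points over kept cells and -3.92 with 24 or more other assays, and Klf4 at 7.19 and -19.6.

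In levels of unnormalized Ct, Nanog was the member that met the size rule between recipients. In kept cells from EKO recipients its Ct was 13.9 at the lowest, 22.74 at the median and 36.1 at the highest (73 cells), against 17.6, 24.16 and 37.9 in cells from WT recipients (85 cells). The ranges overlapped almost wholly, and the medians differed by -1.43 cycles (set A -1.21, set B -1.58). Of 60 assays 35% were called earlier in EKO and 6.67% later, so a shift of this direction was common. Counted against the mean of Actb and B2m, the Nanog difference was 0.57 cycles, of the opposite sign, but the sets were split (set A -0.79, set B 1.58). It was -0.90 against each cell's own median and -0.33 when reactions at a Ct of 30 or later were left out, both under the 1 cycle of the rule. With 24 or more other assays the median Nanog Ct was 23.30 ± 4.64 (SD) over 52 EKO cells and 26.44 ± 4.99 over 37 WT cells, or -3.14 cycles, where 19% of 58 assays were called earlier in EKO and 6.9% later. At that yield the Nanog difference was -2.47 cycles against Actb and B2m (set A -2.56, set B -1.54) and -2.94 against each cell's own median.

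Among collagen-high cells, which differed little in yield between recipients (median 49 other assays in EKO and 48 in WT), the Nanog difference was wider. The Ct was 18.4 at the lowest, 21.74 at the median and 34.6 at the highest in 20 EKO cells, and 19.4, 25.51 and 32.7 in 23 WT cells. That is -3.77 cycles (set A -4.43, set B -3.33), and -4.18 counted against each cell's own median. Against Actb and B2m it was -4.56 (set A -5.56, set B -3.28). In this class 35.6% of 45 assays were called earlier in EKO and 6.67% later, and the median over 61 assays was -0.84 cycles. In Ptprc-detecting cells the Nanog medians were 23.74 in EKO and 24.50 in WT cells, -0.76 cycles. Whether the difference between the classes exceeds the spread of cells was not tested, and the SD within each of these groups was over 4 cycles.

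In unnormalized Ct the other members' levels met no rule between recipients. The median Ct of Sox2 was 18.89 in EKO and 18.62 in WT cells, or 0.27 cycles apart. Against each cell's own median Sox2 was 1.18 cycles later in EKO cells (set A 1.13, set B 1.04). Against Actb and B2m it was 2.58 later (set A 2.64, set B 2.39), so both reached the size of the rule. With 24 or more other assays these 2 values were 0.32 and 0.20, and over all cells with fewer 0.19 and -2.58. The median Ct of Klf4 differed by -0.56 cycles, though set A gave 0.55 and set B -1.20. Myc was read at a median of 16.56 in EKO and 15.69 in WT cells, 0.87 cycles later, and the mean in place of the median gave -0.30. Within the collagen-high class the difference was -0.01, and within the Ptprc-detecting class -1.36 (set A -3.63, set B -0.28), where 14 EKO and 7 WT cells detected Myc.

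Of 34 further genes listed as neighbours of pluripotency, Wnt and Notch signalling, stem cells or the cell cycle, 15 were on the panel. Of these, 5 were called more often detected in EKO kept cells and 0 less often: Notch1 (25.9 points), the survival gene Bcl2 (23.1), Ctnnb1, which encodes beta-catenin (19.2), the blood transcription factor Runx1 (15.2) and the ligand gene Wnt3a (13.2). Over all 96 assays the shares called were 20.8% and 0%. The median over the 15 was 6.58 points, against 5.70 over the panel. With 24 or more other assays 2 were called higher, Bcl2 and Wnt3a, and 0 lower, against 3.12% and 14.6% of all assays, and the median was 0.19. Nog, which encodes the BMP antagonist noggin, differed by -10.9 points (set A 3.85, set B -26.4). Between the cell classes 5 of the 15 were higher in collagen-high cells (Bcl2, Ctnnb1, Runx1, Ccnd1 and Fgf2) and 2 lower (the proliferation marker Mki67 and the receptor gene Kit), against 54.8% and 7.53% of 93 assays. Shh was detected in no cell.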

How the data were processed

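Single cells were sorted and read with FAM-labelled assays, per the labels. The authors deposited 1 table of values that is described as not normalized and names no unit. The values were taken as raw Ct: the detected ones lie between 4.49 and 37.9, and the other 69.7% of 18432 reactions are at exactly 40. The instrument, threshold and preamplification are not given in these sources. The labels speak of each chip but do not say how sets A and B relate to chips or animals, so the sets were used only as named. Of 96 assay names, 88 matched a symbol and 5 a synonym in the RefSeq GRCm38.p6 gene table, used for names only, and 3 were kept as written. No pair of cells had identical values.

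The members, gene lists, cell classes and rules were chosen with earlier results of these data known. All 6 members are named. For each member the 3 assays with the highest phi were named among those detected in 10 to 90% of kept cells, and among the neighbours those that met the rule and the one with the largest difference below 0. Kept cells detected at least 10 of 96 assays: 77 EKO and 93 WT. Shares had exact 95% intervals, and the interval of a difference joined them by the square-and-add method. A share of 0 was also given the limit that 3 counts allow. Levels were medians of unnormalized Ct over detecting cells. The number of cells limits the precision. No p-value was computed, so calls are of size only. The number of other assays left out the 6 members, and for another assay that assay itself as well.

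Alternatives were other Ct limits, other filters on cells, each set alone, weights by yield, the mean in place of the median, and Ct counted against the cell's own median or against the mean of Actb and B2m. Values within a cell class, with at least 24 or 40 other assays and the level differences between classes were chosen after seeing the data. Shares, levels and rules were computed with code that was first tested on simulated data. Python 3.11.15, NumPy 2.4.6, pandas 2.3.3, SciPy 1.17.1 and Matplotlib 3.10.9 were used.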

Additional observations from a re-analysis of the deposited data

Results flagged for a closer look

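Among the 22 cells that detected fewer than 10 of the 96 assays and were left out of the main comparisons between recipients, Sox2 was detected in 19 (86.4%, exact interval 65.1 to 97.1%). It drew attention as a signal in cells outside the main comparisons that exceeds what a count of 0 allows. Its Ct there was 17.9 at the lowest, 18.54 at the median and 28.98 at the highest. Sox2 was found in 18 of the 19 such cells from EKO recipients and in 1 of the 3 from WT recipients. Sox2 was not alone in this: Cxcl12 Mm00445552_m1 and Rn18s were detected in all 22 cells, Wnt3a, read by an exon-spanning assay, in 16 and Actb in 14. Nanog and Myc were detected in 1 cell each, and Klf4, Tert and Pou5f1 in none. The filter counts the 6 genes themselves, so a cell near the limit that detects Nanog is kept, and the contrast with Nanog is partly set by it. Of the 32 cells with 0 to 9 assays outside the 6 genes, 28 detected Sox2 (87.5%) and 11 Nanog (34.4%).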

How the results depend on the processing

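Of 230 values recomputed under an alternative for 25 results, 198 kept their sign and 32 changed it. Of the 32, 4 were values of a difference that met the size rule, and the others belong to differences that did not. A further count is of size: 14 values moved beyond the counting interval or the SD over cells without reversing a called difference. The Myc share difference, EKO minus WT, was 16.2 points over kept cells, 4.78 when weighted to the same yield in both genotypes, 8.33 without the filter on cells, -0.22 with at least 24 of 96 assays and -3.92 with at least 24 of the 90 others. That of Klf4 was -15.4 and -19.6 under the filters at 24 assays, -4.03 when weighted by yield and -9.52 in collagen-high cells alone. The Klf4 difference between collagen-high and Ptprc-detecting cells was 45.7 points with at least 24 of 96 assays and 9.63 with at least 40 others. That of Myc was 43.5 and -4.65. The Sox2 share difference, EKO minus WT, was 20.2 points in collagen-high and -10.95 in Ptprc-detecting cells alone. That of Nanog was 12.6 at a Ct limit of 28, -11.5 without the filter on cells and -6.97 in cells of neither class, and its difference by yield was 11.8 at a limit of 30. Counted against the mean of Actb and B2m, the median Ct of Nanog differed by 0.57 cycles in place of -1.43 and that of Sox2 by 2.58 in place of 0.27. With 24 or more other assays these values against Actb and B2m were -2.47 for Nanog and 0.20 for Sox2. Over kept cells the Nanog difference was -0.90 against each cell's own median and -0.33 at a Ct limit of 30. Counted against each cell's own median, Sox2 was 1.83 cycles later in collagen-high than in Ptprc-detecting cells. With 24 or more other assays it was 0.90 later by that measure. The cause of these changes was not tested. Each genotype is 1 sample, so no paired analysis was possible because no label pairs cells between recipients, and no difference has a replicate check.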
